A study of Mus musculus with 2 samples.

Results

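DNA replication and mitosis genes were described in cells from mouse bone marrow exposed to an ovarian tumour line, ID8, or to its supernatant, since the labels differ. The set holds 45 genes listed by their function, 26 of DNA replication and the G1 to S transition and 19 of mitosis. Probe sets were taken where the platform annotation gave the member as the only gene symbol. That left 43 members, 25 of replication and 18 of mitosis, with 96 probe sets among the 45037 of the array and the 18193 genes it names. Chaf1a (replication) and Ccnb1 (mitosis) had no such probe set and are not analysed here.

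The series compared ID8-induced myeloid-derived suppressor cells (MDSC) with control bone marrow cells, with 1 Affymetrix array each. Both samples came from femurs of C57BL/6 mice, were grown with 5% FBS and carry the phenotype CD11b+Gr1+ in the labels. The age of the mice, the number pooled and the time the control spent in culture are not stated in the labels used here. By its protocol, the ID8-induced sample had 4 days under ID8 cells, a mouse ovarian tumour line (also written 1D8 in the labels). Those cells were held in the upper chamber of a transwell plate. The title and the source name of the sample name ID8 supernatant instead. The control signals form a pair of interleaved descending runs down the rows and are not tied to their probe sets, so no fold change was taken and every value below is a MAS5 signal of the ID8-induced array alone. With 1 array there is no replicate error and no test, and the number of arrays is what limits the precision. None of the values says how a gene responded to the tumour cells.

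A myeloid identity list was read beside the labelled cell type. All 11 of its measured genes lay at or above the 95.2 percentile of the array, from Spi1 at 1325 to S100a9 at 24857. The list was chosen with earlier results of these data known. Without a usable control, it cannot tell MDSC from other myeloid cells of the marrow. The CD11b gene Itgam read 2375. The Gr1 antigen gene Ly6g had no probe set of its own name and is not analysed here. In a bulk sample, fewer cycling cells and less RNA of a gene in each cell cannot be told apart.

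Cell cycle genes are switched on in waves. E2F factors, held back by RB family proteins, drive the genes of the G1 to S transition, whose products load the MCM helicase on origins, supply nucleotides and copy DNA. Genes for spindle, checkpoint and chromosome proteins come on later, in G2 phase and mitosis, through promoters that often hold CCAAT boxes, which NF-Y binds, and a cell cycle genes homology region (CHR), which MuvB complexes bind. In marrow, neutrophil precursors divide up to the myelocyte stage and later stages do not.

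Promoters are shown first because they do not depend on the array signals. Their words are counted with no test. The words searched are those described above for genes of these kinds, so the shares are not independent of the choice of genes. RefSeq promoter windows (GRCm38.p6, 250 bases before to 50 after the start site) were matched by symbol for 36 of the 43 measured members, 21 of replication and 15 of mitosis. Those not matched were Mcm4, Gins1, Gins2, Ccne2, Ccna2, Aurkb and Tpx2. The E2F words searched were the word TTCCCGC, the word TTGGCGC, the word TTCGCGC and the word TTGCCGC. The CCAAT box was searched by those letters alone, and the CHR by the word TTTGAA and the word TTCGAA, each on both strands, with overlapping matches of a motif counted as 1. An E2F word was present in 14 of 21 replication promoters (66.7%) and 2 of 15 mitosis promoters (13.3%), against 16.0% of the 14452 genes on the array that have a window. A CHR word was present in 12 of 15 mitosis promoters (80.0%) and 5 of 21 replication promoters (23.8%), against 17.5%. A CCAAT box stood in 13 of 15 mitosis promoters (86.7%), in 9 of them more than once, and in 12 of 21 replication promoters (57.1%), against 42.0% of genes with a window. CCAAT and CHR words stood together in 12 mitosis promoters (80.0%) and 4 replication promoters (19.0%), against 8.25% of genes. Of all 32851 windows in the table, 9.57% held an E2F word, 19.2% a CHR word and 37.4% a CCAAT box. E2F and CCAAT words can share bases, which happened in the promoters of Mcm7 and Prim1. A match is a description of letters and not a bound site.

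The 180 bases before the start site are given for 3 mitosis and 3 replication members, chosen after the matches were seen because they hold several words each. Capitals mark matched E2F, CCAAT and CHR words on either strand, and each line runs 5′ to 3′ along the gene.
Top2a (chr11:99024190-99024369, minus strand): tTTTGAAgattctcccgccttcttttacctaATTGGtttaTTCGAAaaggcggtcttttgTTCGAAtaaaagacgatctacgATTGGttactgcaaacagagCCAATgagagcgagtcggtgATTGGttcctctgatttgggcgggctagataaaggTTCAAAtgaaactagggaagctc
Cdk1 (chr10:69352913-69353092, minus strand): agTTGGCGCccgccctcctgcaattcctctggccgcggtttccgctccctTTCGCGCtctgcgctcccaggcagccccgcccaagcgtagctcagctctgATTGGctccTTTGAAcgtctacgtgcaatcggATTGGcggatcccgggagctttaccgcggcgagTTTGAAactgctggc
Cdc20 (chr4:118437344-118437523, minus strand): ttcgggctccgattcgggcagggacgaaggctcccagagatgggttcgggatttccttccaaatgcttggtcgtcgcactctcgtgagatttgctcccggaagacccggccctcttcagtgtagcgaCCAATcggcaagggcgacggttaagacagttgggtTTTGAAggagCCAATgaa
Mcm5 (chr8:75109329-75109508, plus strand): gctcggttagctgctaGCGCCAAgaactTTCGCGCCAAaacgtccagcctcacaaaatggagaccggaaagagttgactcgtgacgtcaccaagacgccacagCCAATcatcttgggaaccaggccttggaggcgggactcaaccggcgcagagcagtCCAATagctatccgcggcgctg
Mcm6 (chr1:128359706-128359885, minus strand): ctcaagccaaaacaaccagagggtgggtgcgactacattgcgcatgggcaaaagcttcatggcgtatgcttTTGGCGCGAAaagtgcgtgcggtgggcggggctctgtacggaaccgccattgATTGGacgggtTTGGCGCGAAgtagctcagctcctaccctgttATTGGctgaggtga
Rrm1 (chr7:102441515-102441694, plus strand): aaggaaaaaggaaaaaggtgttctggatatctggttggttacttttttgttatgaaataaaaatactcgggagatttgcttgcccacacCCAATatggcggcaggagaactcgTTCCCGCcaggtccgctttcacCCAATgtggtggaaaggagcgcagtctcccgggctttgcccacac

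The stretch of Top2a held 4 CCAAT boxes and 4 CHR words and no E2F word. That of Cdc20 held 2 CCAAT boxes and 1 CHR word. Cdk1 held 2 of each of the 3 kinds. Mcm5 and Mcm6 each held 2 places with E2F words and 2 CCAAT boxes, and Rrm1 held 1 E2F word between 2 CCAAT boxes, with no CHR word in any of the 3. In the whole window, Birc5 and Nusap1 among mitosis members and Ccne1, E2f1, Tk1 and Tyms among replication members held none of the words, against 41.3% of genes with a window.

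**Figure D1:**
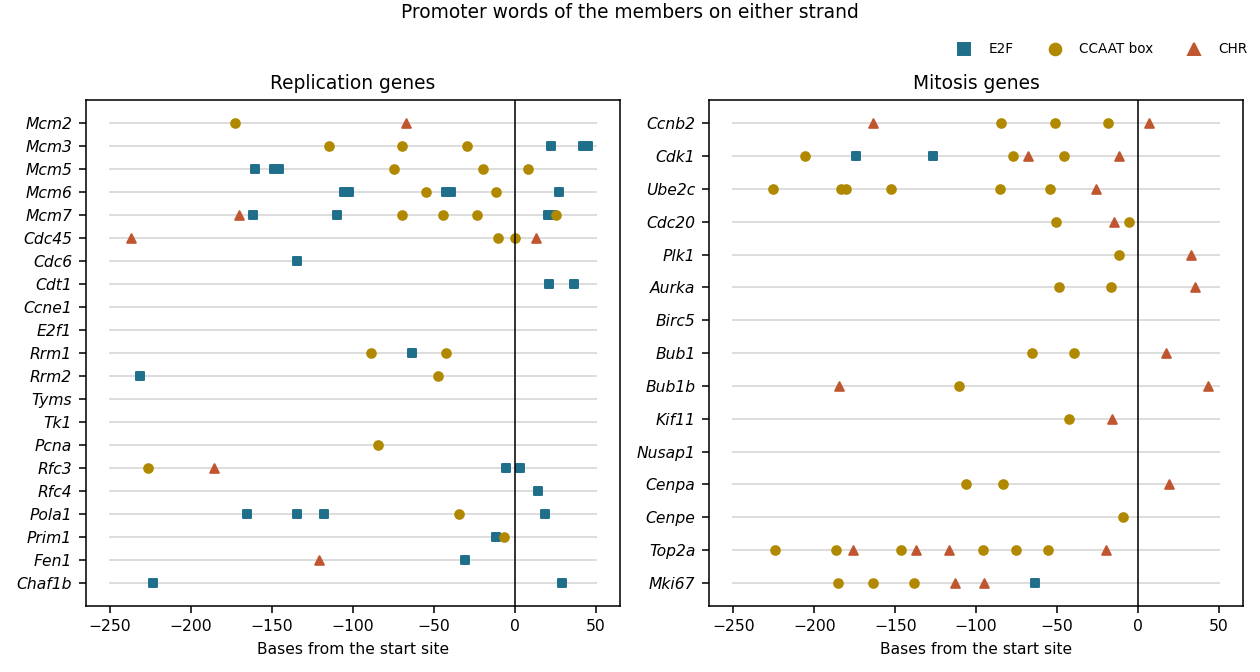
Positions of E2F words (squares), CCAAT boxes (circles) and CHR words (triangles) in the promoter windows of 21 replication and 15 mitosis members, in bases from the start site (0); Mcm7 and Fen1 have 2 windows each, drawn on 1 line. Squares lie mostly among replication genes, with 14 of 21 holding one, and triangles mostly among mitosis genes, with 12 of 15 holding one.

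All 18 measured mitosis genes lay above the signal floor on their brightest probe set, and so did 22 of 25 replication genes. The floor is the 40th percentile of the array, a signal of 68.77, set in the absence of detection calls. On the brightest probe set 71.3% of all named genes pass it. A signal above it is not by itself evidence of expression. A percentile gives the percentage of the array's probe sets that read lower. Signals of different probe sets also depend on how well each hybridises, so percentiles place members on the array and do not rank transcripts by abundance. The median percentile was 90.7 for mitosis genes (middle 50% from 84.2 to 92.5) and 76.8 for replication genes (55.4 to 84.6), against 61.4 over all named genes. The 90th percentile was reached by 10 of 18 mitosis genes (55.6%) and 3 of 25 replication genes (12.0%), and by 14.8% of all named genes. The replication share was thus close to the background.

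Taking the brightest probe set favours genes that have many. Each member was therefore also placed among all named genes with the same number of probe sets, where the median is 50 by construction. On that scale the median was 87.4 for mitosis genes (46.7 to 94.9) and 62.0 for replication genes (4.57 to 96.7). Of the mitosis genes 1 of 18, Kif11, lay in the lower part of its class, as did 8 of 25 replication genes. Every probe set of a gene passed the floor for 13 of 18 mitosis genes (72.2%) and 16 of 25 replication genes (64.0%), against 49.7% of all named genes.

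**Figure D2:**
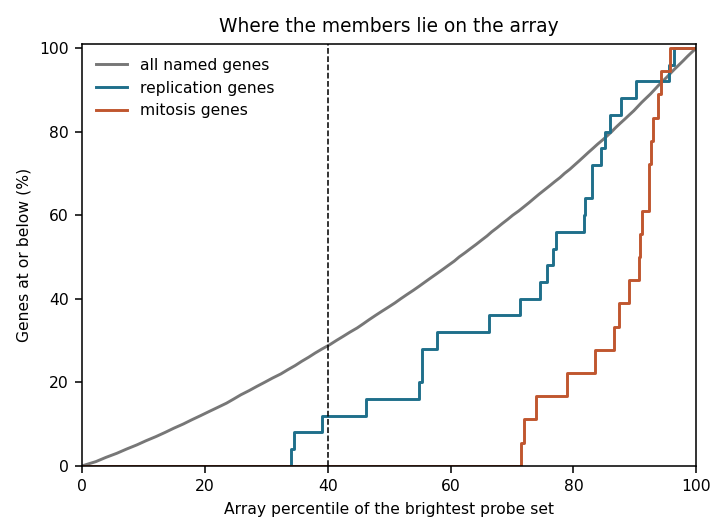
Cumulative share of genes (%) against the array percentile of the brightest probe set, for 25 replication genes, 18 mitosis genes and all 18193 named genes; the dashed line is the floor. The mitosis curve starts at 71.4 and has its median at 90.7, and the replication curve starts at 34.0 and has its median at 76.8.

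The MCM genes, which encode the ring of the replicative helicase, all passed the floor on their brightest probe set. The probe sets of Mcm3 agreed best, its 5 signals being 117, 144, 161, 176 and 181. Mcm2 read 114 and 237, and Mcm4 142 and 337. Mcm7 read 173, 217, 422 and 493. Each of these 4 genes kept all of its probe sets above the floor. Mcm5 and Mcm6 did not, since Mcm5 read 43.4, 239.5 and 632, and Mcm6 28.5, 107 and 232.

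Cdc45 and the GINS proteins join the MCM ring to make the active helicase. Cdc45 read 147 and 221, both above the floor. Gins1 lay below it on both probe sets, at 26.3 and 58.3, and Gins2 on 1 of its 2, at 58.1 and 104. The helicase members thus ranged from Gins1 at the 34.0 percentile to Mcm5 at the 90.2. That value of Mcm5 rests on an x_at probe set, and its probe sets without a suffix letter lay at the 77.4 and the 23.5 percentile.

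Licensing factors load the MCM ring on origins. Cdc6, which recruits it, had a single probe set, at 103. Cdt1, the partner of Cdc6, read 335 and 138 on probe sets made from the same sequence record and 21.2 on another. The brightest signal of Cdt1 was 15.8 times its dimmest, the widest spread among replication members.

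Both E-type cyclins, which activate CDK2 at the start of S phase, were above the floor. Ccne2 read 1412 on its single probe set, at the 95.5 percentile. Ccne1 read 99.2 and 112 on probe sets that differed by only 1.13 times. E2f1, the transcription factor upstream of many of these genes, read 80.0, 134 and 312.

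Nucleotide supply was represented by ribonucleotide reductase, thymidylate synthase and thymidine kinase. Rrm2, the regulated small subunit of the reductase, read 188, 342 and 420. Rrm1, the large subunit, read 237 and 309 on probe sets of 1 sequence record and 21.8 on another. Tk1 read 148 on its single probe set. Tyms lay below the floor on all 4 of its own probe sets, at 28.7, 36.2, 53.2 and 59.2. It lay at the 4.57 percentile of genes with as many probe sets, the lowest of all members. A further probe set that names both Tyms and its pseudogene Tyms-ps read 147. It lies outside the rule, and the signals of the near-identical copies cannot be told apart on it.

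Of the 6 genes of the replication fork, 5 passed the floor on their brightest probe set. Pcna, the sliding clamp, read 1756, the strongest signal among all members, on a single probe set at the 96.4 percentile. The clamp loader subunits Rfc4 and Rfc3 read 121 and 208, and 71.0 and 104. Prim1, the catalytic subunit of primase, read 126 and 394. Fen1, the flap endonuclease that trims Okazaki fragments, read 84.1 and 375. Pola1, the catalytic subunit of polymerase alpha, read 42.5 and 67.1, the second of these just under the floor, while the dimmer Rfc3 signal lay just over it. Chaf1b, a subunit of the chromatin assembly factor that places histones on new DNA, read 49.4 and 81.0, on both sides of the floor. Of the 25 replication genes only Gins1, Tyms and Pola1 thus had no probe set of their own above it.

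**Figure D3:**
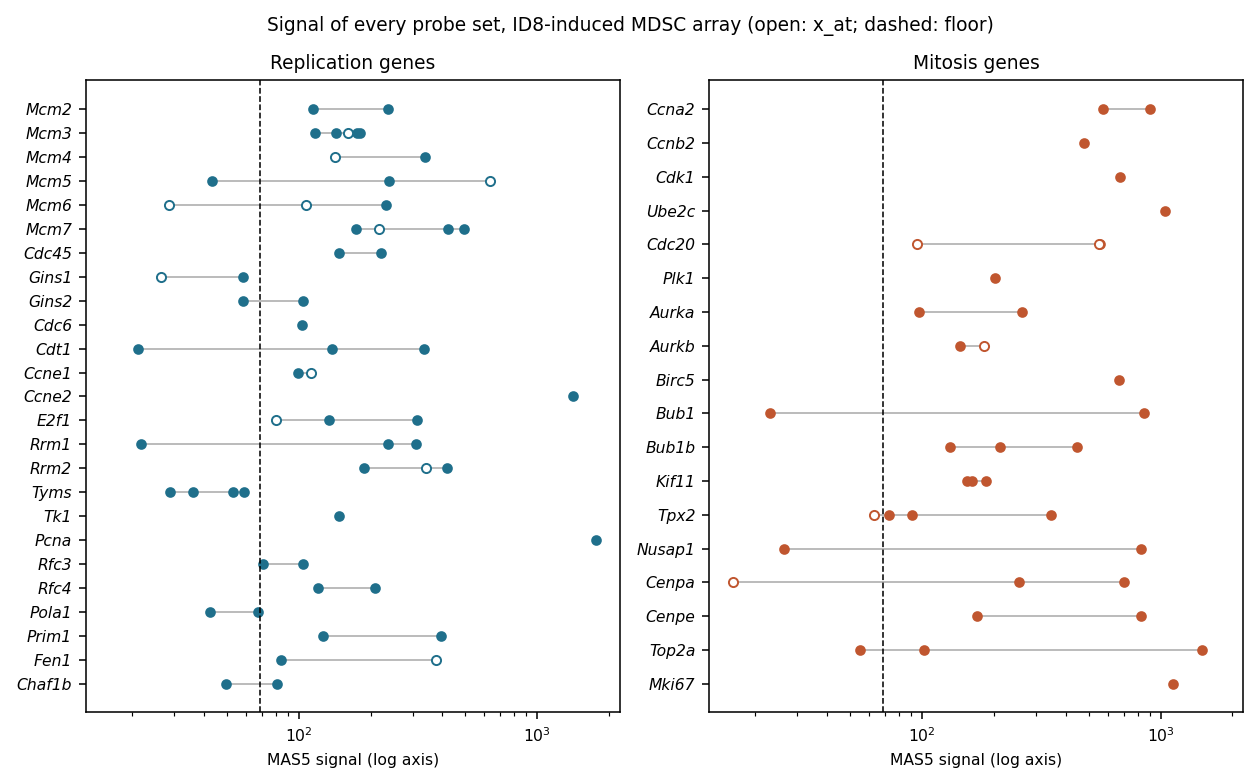
MAS5 signal (log axis) of all 96 probe sets of the members on the ID8-induced array, 1 row per gene, with a grey line from the dimmest to the brightest; open circles are x_at probe sets and the dashed line is the floor of 68.77. Gins1, Tyms and Pola1 lie wholly to the left of the floor, and Cenpa, Bub1 and Nusap1 stretch furthest across it.

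Among mitosis genes, the cyclins and their kinase were above the floor on every probe set. Ccna2, the A-type cyclin of S phase and early mitosis, read 574 and 901. Cdk1, the mitotic kinase that these cyclins activate, read 677, and Ccnb2, a B-type cyclin, 478, each on a single probe set. Their brightest probe sets lay between the 87.4 and the 93.0 percentile.

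Cyclins are destroyed at the end of mitosis through the anaphase promoting complex. Ube2c, the ubiquitin-conjugating enzyme of that complex, read 1040 on its single probe set. Cdc20, its activator, read 559 and 549 on a pair that nearly coincided and 95.0 on another.

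Mitotic kinase and passenger genes were above the floor on every probe set. Plk1, which acts from mitotic entry to cytokinesis, read 203. Aurka, the centrosomal Aurora kinase, read 96.7 and 261. Aurkb, the kinase of the chromosomal passenger complex, read 145 and 181. Birc5 (survivin), another member of that complex, read 668 on its single probe set.

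Spindle checkpoint kinases were above the floor on their main probe sets. Bub1b (BUBR1) read 131, 211 and 445. Bub1 read 855 and 23.1, a ratio of 37.1 and one of the widest in the set. The dim probe set lies at the 8.62 percentile.

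Spindle genes differed in how far their probe sets agreed. Kif11, the kinesin that pushes spindle poles apart, read 154, 162 and 186, a ratio of 1.21. Tpx2, which activates Aurora A on the spindle, read 62.8, 72.8, 91.0 and 348. Nusap1, which bundles spindle microtubules, read 826 and 26.2 on probe sets made from the same sequence record.

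Centromere and chromosome genes each reached the 90th percentile on their brightest probe set. Cenpa, the histone H3 variant of centromeres, read 704, 255 and 16.1, the widest ratio of all members at 43.6. Cenpe, the kinetochore kinesin, read 829 and 170, both above the floor. Top2a, the topoisomerase that untangles sister chromatids, read 1488, 102 and 54.9. Mki67, the antigen Ki-67 that coats mitotic chromosomes, read 1123 on its single probe set.

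Over all members together, disagreement between probe sets of a gene was near that of the array in the middle of its range. The medians of the classes lay on either side of the array's, and no test of their difference was made. Of the 43 members, 10 had a single probe set and therefore no such check, Pcna, Ccne2, Ube2c and Mki67 among them. For the 33 with several, the brightest over the dimmest signal had a median of 2.70, against 3.01 for all 9010 genes with several. It was 2.22 for the 21 replication genes and 5.21 for the 12 mitosis genes. The ratio was under 2 for 11 members (33.3%), against 31.4% of all such genes, and over 5 for 10 (30.3%), against 31.5%. It was over 10 for 7 (21.2%), against 14.6%. These 7 were Mcm5, Cdt1 and Rrm1 of replication, and Bub1, Nusap1, Cenpa and Top2a of mitosis. Probe sets fell on both sides of the floor for 6 of 21 replication genes (28.6%) and 5 of 12 mitosis genes (41.7%), against 43.7% of all such genes. The replication genes were Mcm5, Mcm6, Gins2, Cdt1, Rrm1 and Chaf1b, and the mitosis genes Bub1, Tpx2, Nusap1, Cenpa and Top2a.

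The ratio grows with the number of probe sets, so members were also set beside genes with as many. It exceeded the median of that class for 9 of 21 replication genes and 8 of 12 mitosis genes. The upper quartile of that class was exceeded for 5 of 21 replication genes and 5 of 12 mitosis genes. For probe sets made from the same sequence record, the median ratio was 1.61 over 15 such groups among members, against 2.02 over 3788 on the array. Nusap1 was the exception among members at 31.5, while the other 14 lay between 1.16 and 3.82. Ratios reflect hybridisation as well as transcript level, and neither part was measured apart. They are not the error of a signal and do not cover the spread between cultures.

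**Figure D4:**
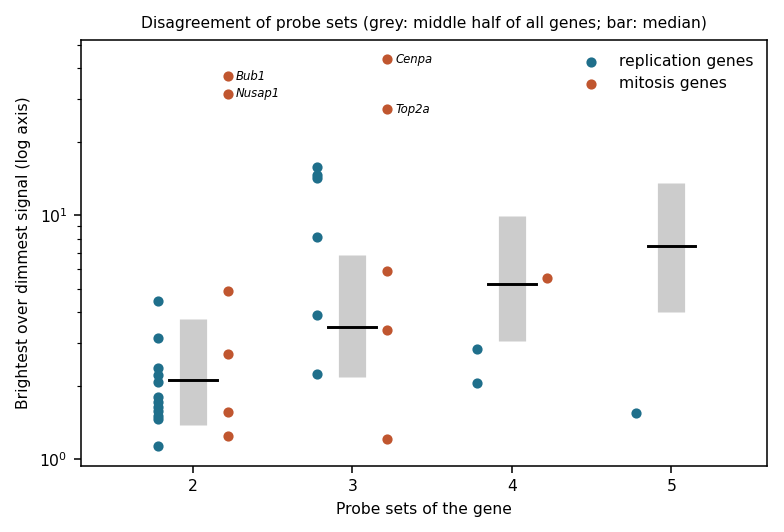
Ratio of the brightest to the dimmest signal (log axis) against the number of probe sets, for 21 replication and 12 mitosis genes; grey bars span the middle 50% of all named genes with that number and black lines are their medians. Cenpa, Bub1, Nusap1 and Top2a stand far above the grey bars at 43.6, 37.1, 31.5 and 27.1.

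Further genes of the same processes were read from lists beside the members. Of 38 other replication genes 37 passed the floor (97.4%, against 71.3% of all named genes), with a median percentile of 77.6, where the replication members had 76.8. The 90th percentile was reached by 2 of them (5.26%, against 14.8% of all named genes). Slbp (the histone mRNA binding protein) at 1150, Rfc2 (a clamp loader subunit) at 686 and Orc4 (a subunit of the origin recognition complex) at 460 were the strongest, with dimmest probe sets at 39.8, 163 and 12.0. Gins3 was the one below the floor, at 64.8. Of 40 other mitosis genes 39 passed (97.5%), with a median percentile of 81.2, lower than the 90.7 of the mitosis members. Among genes with as many probe sets their median was 74.3, against 87.4 for the members. Of these other mitosis genes 7 reached the 90th percentile (17.5%), a share near the 14.8% of all named genes and below the 55.6% of the members. Cks2, a CDK subunit, read 3542 and 3346 on its probe sets, Pttg1 (securin) 3236 with 211 on its dimmest, and Smc4 (condensin) 2746 with 1070 on its dimmest. Kif15, a spindle kinesin, lay below the floor at 44.2.

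Genes that restrain the cycle were spread over the array. The floor was passed by 9 of 10 CDK inhibitor and RB family genes, against 71.3% of all named genes. Of the 10, 4 reached the 90th percentile (against 14.8% of all named genes), and the median percentile was 84.8. Cdkn1a, a broad CDK inhibitor, read 7175 and 6509 on its 2 probe sets, above the 99th percentile. Cdkn1b, its relative, read 3798 and 272, and Cdkn2d, an inhibitor of CDK4 and CDK6, 3470. Rb1 lay at the 95.0 percentile (44.7 on its dimmest probe set), and its relatives Rbl2 and Rbl1 at the 86.3 and the 74.7. The CDK inhibitors Cdkn2c, Cdkn1c and Cdkn2b lay at the 83.2, the 71.1 and the 66.4. Cdkn2a lay below the floor at 65.6. Of the 6 G1 cyclins and kinases all passed, but each has several probe sets, and 88.9% of all named genes with 3 probe sets pass. Ccnd3 read 2219 (153 on its dimmest probe set), Cdk4 639 (256) and Cdk2 365 (13.6), with Ccnd1 as the lowest at 118. The other E2F factors passed in 9 of 9 cases and none reached the 90th percentile, with E2f2 at 345 (206 on its dimmest), E2f5 at 303 (53.3) and the dimerisation partner Tfdp1 at 268, and E2f6 as the lowest at 71.9.

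Markers of other marrow cells that could divide were read on the same array, and their part in the members' signals was not tested. Summed signals of a list are given for description, since they add probe sets that hybridise differently. Promyelocyte markers passed the floor in 6 of 6 cases, from Ms4a3 at 157 to Prtn3 at 1229, with a summed signal of 2843 and a median percentile of 83.5. Erythroid markers passed in 6 of 9 (66.7%, against 71.3% of all named genes), with a median percentile of 51.3 and a summed signal of 3772, most of it from Alas2 (1693) and Tfrc (1476), while Klf1, Hba-a1 and Car1 lay below at 55.9, 51.3 and 31.2. B progenitor markers passed in 9 of 10, with a summed signal of 1270, a median percentile of 57.6 and none at the 90th. Cd79b at 261 and Vpreb3 at 241 were the strongest, and Rag2 lay below the floor at 31.1. Stem and progenitor markers passed in 9 of 9, from Mecom at 89.8 to Myb at 542, with Kit at 103 and a summed signal of 1769. Their median percentile was 59.3, against 61.4 of all named genes, and 5 of 9 lay below the median of genes with as many probe sets. Epithelial markers, which ID8 cells could bring, passed in 7 of 11 (63.6%), with a median percentile of 43.8, a summed signal of 1009 and Cldn3 as the strongest at 239, while Wt1, Krt19, Cldn4 and Cdh1 lay below. No marker was at 0.

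**Figure D5:**
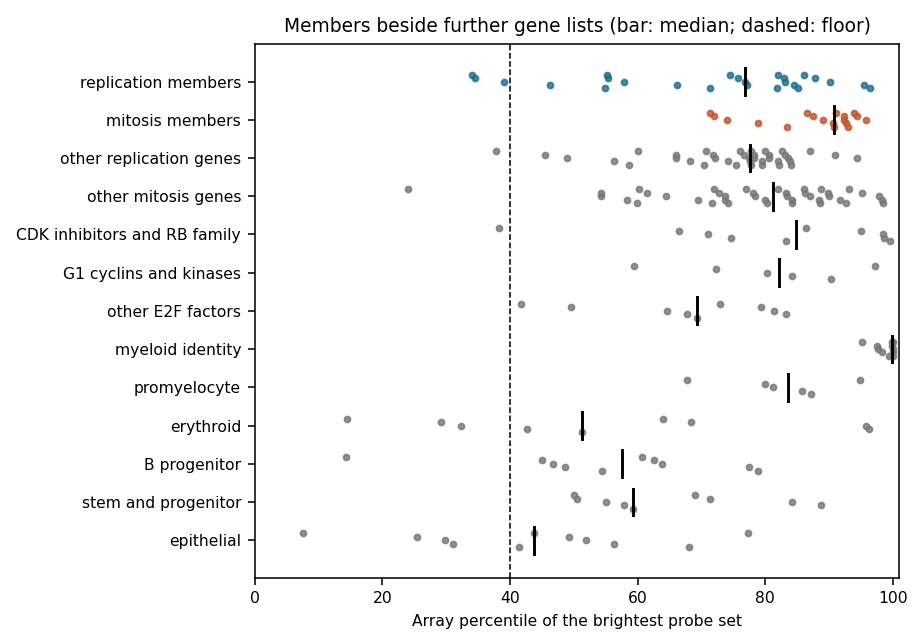
Array percentile of the brightest probe set for every measured gene of the replication and mitosis members and of 11 further lists, with the list median as a bar and the floor as a dashed line. The median of the replication members (76.8) lies near that of the other replication genes (77.6), and the median of the mitosis members (90.7) above that of the other mitosis genes (81.2); the myeloid identity list (99.8) is higher and the epithelial list (43.8) lower than all 4.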

How the data were processed

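Each probe set had 1 deposited value, a signal intensity on a linear scale that the authors made with MAS5, per the submitters' processing notes. Version, scaling target and detection calls are not stated there. Per the labels' protocols, 6 ug of TRIzol-extracted total RNA was turned into biotinylated cRNA. The control column was checked only for order. It had 3103 rises in 45036 steps from row to row (6.89%), against 22454 (49.9%) in the ID8-induced column, and 0 when its values at or above and below its last value were taken apart, against 10622 and 11804. The ID8-induced column was used without further scaling.

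Probe sets with 1 gene symbol in GEO's platform annotation (34945; 932 carried several and 9160 none) were used. A gene was taken by its brightest probe set and each probe set is given. The floor was the 40th percentile of the array. The members and lists were chosen with earlier results of these data known. All members and all measured CDK inhibitor and RB family genes are named. Of each other cell cycle list, the 3 strongest, the weakest and those below the floor are named. Of marker lists, a few were picked after their values were seen. Design sequence records are those of the platform annotation. The code of the summaries and the word search was checked on simulated data with implanted answers. There, probe sets of a gene had the same level unless lowered on purpose, so the check does not cover the noise of the array. Alternatives were other floors, the mean log2 signal, the dimmest or first probe set, probe sets without a suffix letter and probe sets naming several genes. Python 3.11.15, numpy 2.4.6, pandas 2.3.3, scipy 1.17.1 and matplotlib 3.10.9 were used.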

Additional observations from a re-analysis of the deposited data

Results flagged for a closer look

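The bone marrow control column held measured signals, with a median of 92.31, that no description of the members uses, because its values form a pair of interleaved descending runs along the probe set IDs and are not tied to genes.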

How the results depend on the processing

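Counts above the floor stayed within 1.5 times of 22 replication and 18 mitosis genes under each alternative run (16 to 25 and 13 to 18). The background moved as well. With the floor at the 20th percentile the counts were 25 and 18, against 87.5% of all named genes. At the 60th they were 17 and 18, against 51.6%. With the dimmest probe set they were 16 and 13, against 49.7%. Median percentiles were called moved past 5 points. When a gene's probe sets were averaged on the log2 scale, they were 66.5 for replication and 75.3 for mitosis genes, a difference of 8.8 in place of 13.9. With the dimmest probe set they were 53.6 and 66.4. With the first probe set by ID the replication median was 70.3. With probe sets without a suffix letter, which 38 members have, it was 68.8 and the difference 19.4. The mitosis median was the higher under each of these settings. Mitosis genes with probe sets on both sides of the floor numbered 3 in place of 5 with the floor at the 20th percentile. The share of all genes with several probe sets fell too, from 43.7% to 30.4%. That alternative was added after the data were seen, as was the search of the upstream 250 bases alone. There, 11 of 21 replication promoters held an E2F word (52.4%), against 13.3% of genes with a window. A CHR word was held by 8 of 15 mitosis promoters (53.3%), against 15.7%. Signals of single members moved by over 1.5 times for 18 of 43 with the mean, 29 with the dimmest, 9 with the first, 7 of 38 without suffix letters and 1 (Tyms) with probe sets naming several genes. With the mean, the dimmest or the first, only the 33 members with several probe sets could move. No paired analysis was possible because each group held 1 array. With 1 array, no alternative leaving out a replicate could be run.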

Other observations

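Probe sets of the members are given by the kind of sequence record they were made from, a split chosen after the values were seen. Of 34 made from expressed sequence tags 22 lay above the floor (64.7%), against 17 of 18 made from RefSeq transcripts (94.4%) and 24 of 29 from other mRNA records (82.8%). Over all named probe sets these shares were 61.1%, 67.5% and 64.5%. The other 15 had no record in the annotation, and 14 of them lay above the floor (93.3%, against 67.5% on the array). In members with several probe sets, 16 of 33 probe sets from tags were the dimmest of their gene (48.5%, against 37.5% on the array) and 10 the brightest (30.3%, against 31.1%). Of 14 from RefSeq transcripts, 6 were the dimmest (42.9%, against 29.5%) and 5 the brightest (35.7%, against 46.1%). Of 24 from other mRNA records, 6 were the dimmest (against 32.9% on the array) and 14 the brightest (58.3%, against 38.9%). Of the 15 without a record, 5 were the dimmest (33.3%, against 32.7%) and 4 the brightest (26.7%, against 32.7%). Tags of Bub1 at 23.1, Rrm1 at 21.8, Cdt1 at 21.2 and Cenpa at 16.1 were the dimmest of their genes. Other tags were the brightest, such as those of Cenpa at 704 and Top2a at 1488. Cenpa and Rrm1 had probe sets from tags alone, so a tag was bound to be both their dimmest and their brightest. The dimmest probe set of Top2a, at 54.9, came from an mRNA record, and the pair of Nusap1 from 1 mRNA record.

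Members with and without a promoter word are given side by side. Replication members had a median percentile of 79.3 with an E2F word (14 genes) and 75.7 without (7), 79.5 with a CCAAT box (12) and 66.2 without (9), and 77.2 with a CHR word (5) and 75.6 without (16). Mitosis members had 92.5 with an E2F word (2) and 90.6 without (13), 90.8 with a CCAAT box (13) and 91.5 without (2), and 89.9 with a CHR word (12) and 92.3 without (3). Ordered by ID, the signals of the first and the second probe set gave a Spearman rho of 0.469 across the 21 replication members with several, -0.196 across the 12 mitosis members, 0.160 across all 33, and 0.507 across all 9010 such genes, all points coming from 1 array.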
